A study of Homo sapiens with 15 samples.

Results

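Keratin genes of simple and mucosal epithelia were followed through the knockdown of 4 transcription factors in lung squamous cell carcinoma (LUSC) cells. The 9 genes, KRT7, KRT8, KRT18, KRT19, KRT4, KRT13, KRT23, KRT78 and KRT80, were picked by symbol out of the 61544 genes of the count table, and all 9 passed the low-count filter. A further 46 keratins, mostly of basal, activated or cornified epithelium and of hair, served as the comparison list. RNA-seq was performed on HCC95, an established human LUSC cell line, in 5 groups of 3 libraries each. The groups carried the negative control siRNA siNC1, siTP63b against TP63, siSOX2b against SOX2, siKLF5b against KLF5 or siGRHL2a against GRHL2, with no other treatment named. Each factor was therefore targeted by 1 siRNA in 1 cell line. The labels number the libraries of a group but do not say that they came from separate cultures, so p-values measure only the spread between these libraries. Library totals ran from 15655495 counts in replicate 3 of siKLF5b to 34229063 counts in replicate 1 of siGRHL2a.

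Keratins are the intermediate filament proteins of epithelia, and a filament is built from a type I and a type II partner. KRT8 (type II) and KRT18 (type I) form the filaments of simple epithelia, usually joined by KRT19 and, in many ducts and glands, KRT7. KRT4 (type II) and KRT13 (type I) form the suprabasal filaments of the non-cornified stratified epithelium that lines mouth and oesophagus, whereas KRT5 and KRT14 pair in basal cells and are used as squamous markers.

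The columns of the count table fell into 2 sets by their names, siNC1 with siKLF5b, and siTP63b with siSOX2b and siGRHL2a. Among genes with 20 to 500 counts, even counts made up 49.7% to 50.7% of values in the libraries of the first set but 66.1% to 69.0% in those of the second. The study's methods speak of counted reads without saying whether the mates of a pair were counted singly, so a small count in the second set may stand for fewer fragments. The first principal component, with 51.0% of the variance, also separated the sets. Column set and knockdown therefore cannot be told apart when siTP63b, siSOX2b or siGRHL2a is set against siNC1, and the comparisons that lead below were made within a set. Within the second set no control siRNA was present, so its differences are between knockdowns only.

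The targeted genes were checked first, in CPM, the count scaled to the size of its library. KLF5 stood at 123, 109 and 107 CPM in siNC1 and at 71.8, 71.8 and 73.8 CPM in siKLF5b. TP63 stood at 691, 662 and 692 CPM in siNC1 and at 350, 351 and 389 CPM in siTP63b. SOX2 stood at 80.9, 66.8 and 72.1 CPM in siNC1 and at 9.72, 7.09 and 10.1 CPM in siSOX2b. Every targeted gene was lower in all libraries of its knockdown than in siNC1, and the fourth, GRHL2, was at 134, 135 and 136 CPM against 90.8, 91.9 and 91.1 CPM in siGRHL2a. The exact two-sided permutation p was 0.1 for each, the smallest that 3 against 3 libraries allow. SOX2 was also low in siTP63b (29.5 ± 2.23 CPM, SD, n = 3) and siGRHL2a (20.2 ± 1.54 CPM). GRHL2 in siGRHL2a was only 0.14 lower than in siSOX2b on the log2 scale (edgeR adjusted p = 0.0313), so these 2 groups were separated little by the gene that siGRHL2a targets.

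The members spanned a wide range of levels. Per kilobase of the canonical transcript, KRT19 led in siNC1 with 1899 ± 178 CPM per kb (SD, n = 3), followed by KRT13 with 1236 ± 105. KRT8 reached 354 ± 17.7 and its partner KRT18 205 ± 2.94 CPM per kb. KRT80, a type II keratin of differentiating epithelia, followed at 18.8 ± 1.17, and KRT4 at 2.70 ± 0.228 CPM per kb. KRT7, KRT78, a type II keratin of stratified epithelia, and KRT23, a type I keratin, were below 1, at 0.983 ± 0.153, 0.368 ± 0.524 and 0.145 ± 0.0237 CPM per kb. The SD of KRT78 exceeded its mean, so its place between KRT7 and KRT23 is uncertain. KRT13 thus far exceeded its partner KRT4, whereas KRT8 and KRT18 were of the same order. The reads had been counted over the whole span of each gene, and per kilobase of span KRT18 (71.8 CPM per kb) ranked above KRT8 (12.0 CPM per kb), whose span of 52768 bases is much longer than its transcript of 1784 bases. Levels of all 9 members in each library are shown in the plot of keratin levels.

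**Figure D1:**
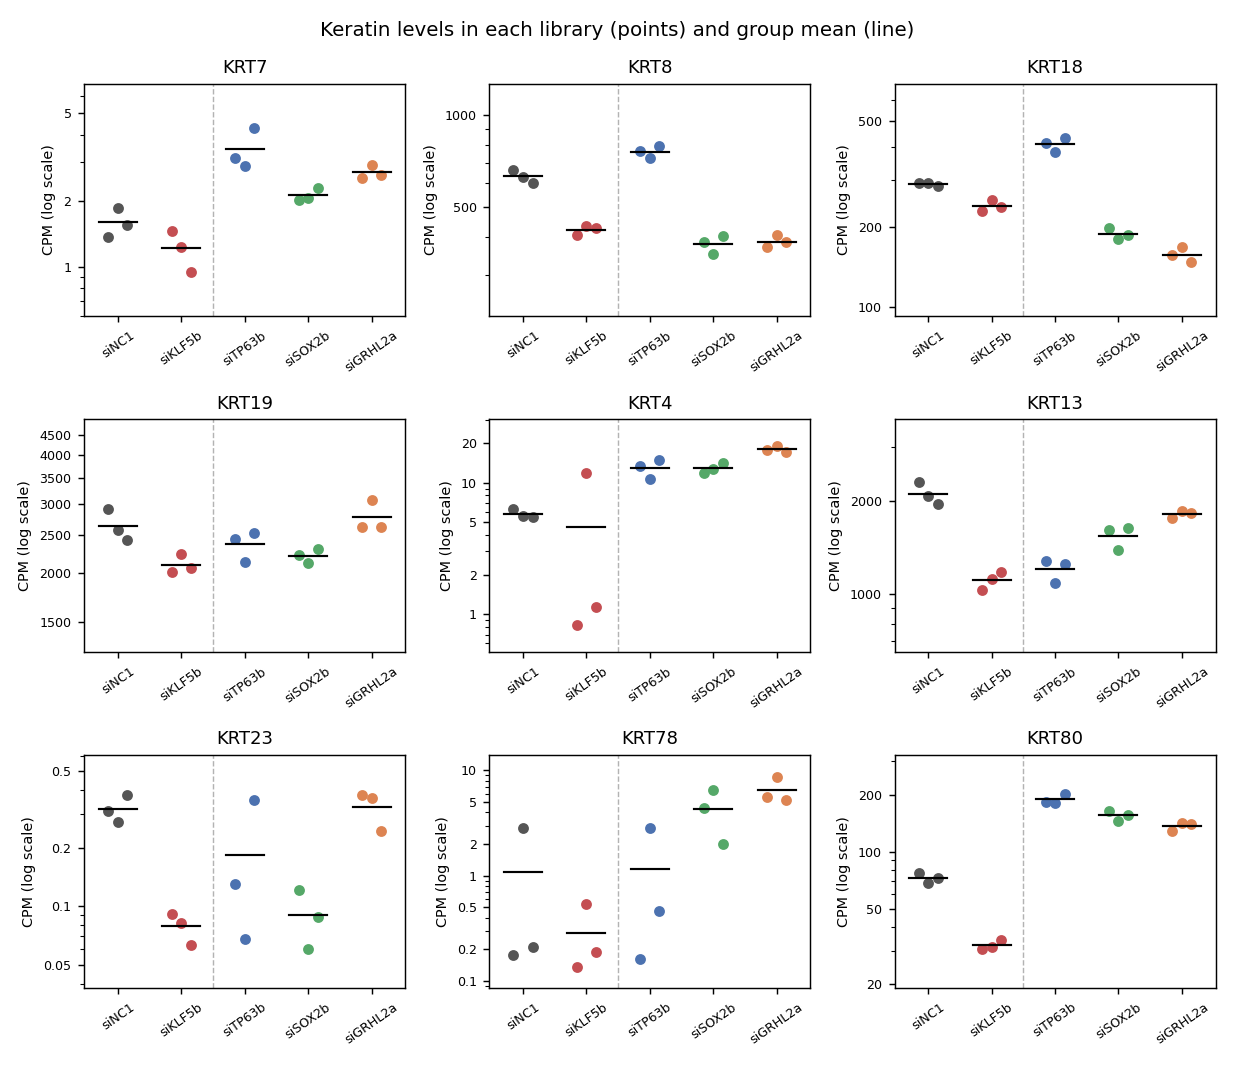
CPM (log scale) of the 9 members in every library (points) with the mean of each group of 3 (lines), and a dashed line between the 2 column sets. KRT8 and KRT18 were highest in the 3 siTP63b libraries, KRT80 and KRT13 were lower in siKLF5b than in siNC1, and KRT4 in siKLF5b was split between 0.823, 11.9 and 1.14 CPM.

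The members lie in the keratin clusters of hg38. On chromosome 12 the files place KRT80 (ENSG00000167767.14, minus strand, 52168996 to 52192014), KRT7 (ENSG00000135480.17, plus strand, 52232520 to 52252186), KRT4 (ENSG00000170477.13, minus strand, 52806549 to 52814116), KRT78 (ENSG00000170423.13, minus strand, 52837804 to 52849092), KRT8 (ENSG00000170421.13, minus strand, 52897187 to 52949954) and KRT18 (ENSG00000111057.11, plus strand, 52948871 to 52952906). KRT18 is the only type I gene among these 6, and it shares 1084 bases with KRT8. On the minus strand of chromosome 17 lie the type I genes KRT23 (ENSG00000108244.17, 40922700 to 40937646), KRT13 (ENSG00000171401.15, 41500981 to 41505705) and KRT19 (ENSG00000171345.13, 41523617 to 41528308).

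Several members share their position with other genes, and the strand setting of the counting was not given in the sources used here. LINC00592, a noncoding gene on the opposite strand, covers all 23019 bases of KRT80 and had 100.8% as many counts as KRT80 over the 15 libraries, with an excess of 11 to 72 counts per library. The reads of KRT80 and LINC00592 can therefore not be told apart, and KRT80 below stands for this locus. KRT7 overlaps KRT86 on its own strand and KRT7-AS and KRT87P on the other, which had 152%, 50.4% and 49.8% as many counts as KRT7. ENSG00000234477 covers the whole of KRT23 and had 222% as many counts, so the 83 counts of KRT23 are uncertain as well. A noncoding gene opposite KRT13, ENSG00000229732, held 18.8% as many counts. KRT8 and KRT18 share 1084 bases, in which the canonical KRT18 transcript starts, and reads there may have been counted for both. Processed copies add doubt for the simple pair: the 51 KRT8 pseudogenes together held 7.24% as many counts as KRT8, of which KRT8P12 made up 82.8%, the 68 KRT18 pseudogenes 1.90% and the 5 KRT19 pseudogenes 0.00061%.

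For KRT4, whose siKLF5b libraries lay on both sides of all control libraries, the RefSeq promoter window (GRCh38.p14, chr12:52814067-52814366, minus strand, 250 bases before to 50 after the start) is printed 5′ to 3′, with the letters GGGTG, the reverse complement of the CACCC box bound by KLF factors, in capitals.
KRT4: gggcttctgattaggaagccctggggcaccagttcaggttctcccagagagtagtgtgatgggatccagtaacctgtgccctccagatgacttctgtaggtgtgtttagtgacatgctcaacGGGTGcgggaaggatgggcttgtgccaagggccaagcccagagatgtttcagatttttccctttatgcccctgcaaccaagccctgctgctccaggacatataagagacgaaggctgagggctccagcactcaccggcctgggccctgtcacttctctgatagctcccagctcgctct
KRT8 was the only other member of the 9 with an entry, and the start site of its window lies 21393 bases upstream of the canonical KRT8 start, so it is not shown. The KRT4 window held 1 CACCC match, which 59.9% of the 35116 promoter windows of the same length also hold on either strand. The letters CATG, the core of p53 family sites, were found once (54.9% of windows), and neither AACNNGTT (GRHL, 3.52%), ACAAT (SOX, 27.4%) nor TATAAA (11.5%) was present on either strand. A match is a description of letters and not of a bound site.

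KRT80 and KRT13 were lower in the cells that received the KLF5 siRNA. In siKLF5b against siNC1, 2 of the 9 members were lower and 0 were higher at an adjusted p below 0.05 and an absolute log2 fold change (log2FC) above 0.75, where 1.37% of the 25108 genes tested were lower and 1.89% were higher. With the adjusted p alone, 5 were lower and 0 higher, where 12.9% of all genes tested were lower and 10.3% higher (23.2% in either direction). The median log2FC of the 9 members was -0.58, beside -0.0097 over all genes tested.

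KRT80 showed the clearest shift. Its level was 77.1, 68.0 and 72.8 CPM in siNC1 and 30.4, 31.3 and 34.2 CPM in siKLF5b. All siKLF5b libraries lay far below the lowest control library. The log2FC was -1.19 (SE 0.067, edgeR adjusted p = 1.57e-14), a loss of 56.2% for the locus that KRT80 shares with LINC00592.

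KRT13, the mucosal type I keratin, was at 2313, 2090 and 1955 CPM in siNC1. It was at 1032, 1120 and 1178 CPM in siKLF5b, and the groups did not overlap. Its log2FC was -0.93 (SE 0.065, adjusted p = 1.94e-12), a loss of 47.6%. Its type II partner KRT4 gave no such common value. KRT4 had 143, 101 and 130 counts in siNC1 (5.78 ± 0.488 CPM, SD, n = 3) but 18, 289 and 18 counts in siKLF5b (4.62 ± 6.29 CPM). Replicates 1 and 3 of siKLF5b were thus below and replicate 2 was above every control library. The fitted log2FC of KRT4 was -0.22 (95% interval -1.05 to 0.62, adjusted p = 0.771). Without replicate 2 of siKLF5b it was -2.59 (adjusted p = 6.96e-10), and without replicate 1 or 3 it was 0.29 or 0.16.

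KRT8, KRT18 and KRT19 of simple epithelia were lower as well at the adjusted p, but by less than the threshold of 0.75. KRT8 was at 665, 628 and 602 CPM in siNC1 against 406, 434 and 429 CPM in siKLF5b. No library of the groups overlapped, and the log2FC was -0.58 (SE 0.052, adjusted p = 5.09e-10). KRT18 went from 290 ± 4.15 to 240 ± 12.0 CPM with a log2FC of -0.27 (SE 0.053, adjusted p = 0.000211). KRT19, the shortest keratin and a partner for several type II chains, went from 2639 ± 247 to 2102 ± 118 CPM with a log2FC of -0.33 (SE 0.066, adjusted p = 0.000308). KRT7 was too sparse to place: 31, 34 and 37 counts in siNC1 and 32, 30 and 15 counts in siKLF5b gave a log2FC of -0.36 (95% interval -0.86 to 0.15, adjusted p = 0.337). In a bulk measurement such as this, fewer cells of a kind and less RNA per cell cannot be told apart.

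The remaining members were near the detection limit. KRT23 had 7, 5 and 9 counts in siNC1 and 2, 2 and 1 counts in siKLF5b. With 3 counts in each siKLF5b library taken as the floor, the siNC1 mean of KRT23 was 2.13 times that floor in CPM. This ratio of means is not a lower bound on the difference. The edgeR log2FC of KRT23 was -1.94 (95% interval -3.46 to -0.43), and its adjusted p of 0.0573 missed the threshold. KRT78 had 4, 52 and 5 counts in siNC1 and 3, 13 and 3 counts in siKLF5b, so in both groups replicate 2 stood alone. The adjusted p of KRT78 was 0.231, and without replicate 2 of siNC1 its log2FC turned from -1.66 to 0.64.

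**Figure D2:**
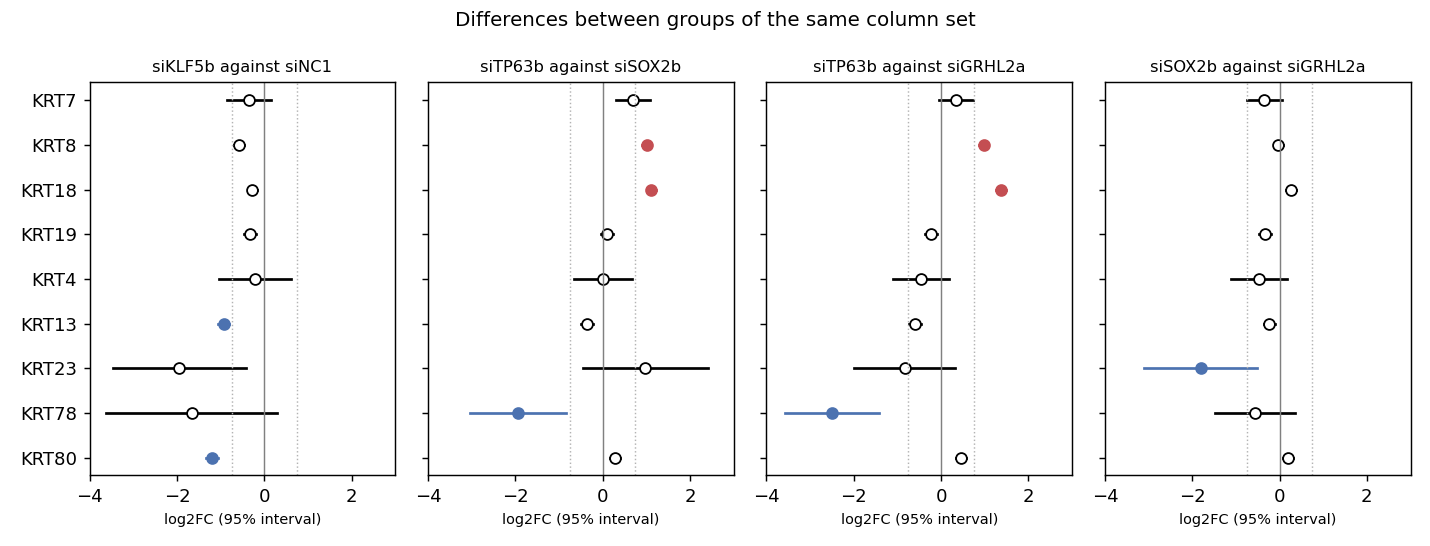
Differences (log2FC, points) with 95% intervals (bars) for the 9 members in the 4 comparisons within a column set. Filled points passed the adjusted p of 0.05 and the dotted lines at 0.75, in red where higher and in blue where lower; KRT8 and KRT18 were higher in siTP63b than in siSOX2b and siGRHL2a, and KRT80 and KRT13 were lower in siKLF5b than in siNC1.

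In the second set KRT8 and KRT18 were higher in siTP63b than in siSOX2b and siGRHL2a. Without a control in this set, a rise in siTP63b and a fall in the other groups cannot be told apart. Against siSOX2b, 2 members were higher (KRT8 and KRT18) and 1 was lower (KRT78), where 3.88% of all genes tested were higher and 2.82% lower. Against siGRHL2a the same 2 members were higher and KRT78 lower, where 2.18% of all genes were higher and 3.21% lower. With the adjusted p alone, 6 members passed in each comparison, beside 31.8% of all genes against siSOX2b and 27.1% against siGRHL2a in either direction. The 2 comparisons share the siTP63b libraries and are not independent of each other. The median log2FC of the 9 members was 0.28 against siSOX2b and -0.23 against siGRHL2a, beside 0.00059 and -0.0090 over all genes.

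KRT8 was at 763, 728 and 794 CPM in siTP63b. It was at 385, 352 and 403 CPM in siSOX2b and at 370, 405 and 385 CPM in siGRHL2a. The siTP63b libraries stood well above all 6 others, whose ranges overlapped. The log2FC was 1.00 against siSOX2b (SE 0.052, adjusted p = 7.68e-16) and 0.98 against siGRHL2a (SE 0.052, adjusted p = 2.51e-15).

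KRT18 was at 411, 382 and 431 CPM in siTP63b. In siSOX2b it was at 197, 181 and 186 CPM and in siGRHL2a at 157, 168 and 148 CPM. Here all 3 groups were separate, with siGRHL2a the lowest. The log2FC of siTP63b was 1.12 against siSOX2b (SE 0.053, adjusted p = 9.44e-17) and 1.37 against siGRHL2a (SE 0.053, adjusted p = 2.02e-18). Both calls for KRT8 and KRT18 were kept when any library was left out, with log2FCs of KRT8 between 0.95 and 1.04 and of KRT18 between 1.07 and 1.43.

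The other simple keratins moved less. KRT7 had 96, 85 and 120 counts in siTP63b against 66, 68 and 52 in siSOX2b, and its log2FC of 0.69 passed the adjusted p (0.00602) but not the threshold of size. Against siGRHL2a its log2FC was 0.34 (95% interval -0.038 to 0.72, adjusted p = 0.184). KRT19 was at 2373 ± 207 CPM in siTP63b, 2215 ± 91.7 in siSOX2b and 2778 ± 264 in siGRHL2a (SD, n = 3 each). Its difference between siTP63b and siSOX2b was 0.10 (95% interval -0.035 to 0.23), whereas siTP63b was 0.23 below siGRHL2a on the log2 scale (adjusted p = 0.00889). KRT19 was the most abundant member. On the log2 scale it had the narrowest range across these 3 knockdowns among the 5 members above 100 CPM in them.

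The mucosal keratins did not follow the simple pair. KRT13 was at 1281, 1086 and 1249 CPM in siTP63b, at 1618, 1389 and 1640 CPM in siSOX2b and at 1768, 1860 and 1835 CPM in siGRHL2a. Each group was below the next without overlap. The log2FC of siTP63b was -0.36 against siSOX2b (adjusted p = 4.76e-05) and -0.60 against siGRHL2a (adjusted p = 1.27e-08), both short of the threshold of size. KRT4 was at 12.9 ± 2.11, 12.9 ± 1.18 and 17.8 ± 0.897 CPM in siTP63b, siSOX2b and siGRHL2a, with differences of siTP63b of 0.0070 (95% interval -0.65 to 0.67) and -0.46 (95% interval -1.11 to 0.18). With edgeR on its column set alone, the second difference of KRT4 had an adjusted p of 0.00205 and stayed short of the threshold of size.

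KRT78 had 5, 83 and 13 counts in siTP63b, 144, 217 and 45 in siSOX2b and 193, 289 and 171 in siGRHL2a. In CPM, replicate 2 of siTP63b (2.82) exceeded replicate 3 of siSOX2b (1.99), so siTP63b and siSOX2b overlapped, whereas all siGRHL2a libraries were at 5.23 CPM or more. The log2FC of siTP63b was -1.94 against siSOX2b (SE 0.54, adjusted p = 0.00577) and -2.50 against siGRHL2a (SE 0.52, adjusted p = 0.000443). DESeq2 made neither call (adjusted p = 0.192 and 0.0834), and the first was lost without replicate 2 of siSOX2b (adjusted p = 0.0586). Without replicate 2 of siTP63b, which held most of that group's counts, the log2FCs were -3.83 and -4.37.

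KRT80 was at 188 ± 11.3 CPM in siTP63b, 155 ± 9.89 in siSOX2b and 137 ± 7.58 in siGRHL2a. It was 0.28 (adjusted p = 0.000296) and 0.46 (adjusted p = 1.51e-07) higher in siTP63b on the log2 scale than in siSOX2b and siGRHL2a. KRT23 had 4, 2 and 10 counts in siTP63b, and neither difference passed the adjusted p.

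Between siSOX2b and siGRHL2a, KRT23 alone was lower in siSOX2b and 0 were higher, where 2.27% of all genes tested were lower and 1.05% higher. With the adjusted p alone 5 members passed, beside 24.5% of all genes in either direction. The KRT23 call rested on 4, 2 and 2 against 13, 12 and 8 counts (log2FC -1.81, SE 0.64, adjusted p = 0.0364). Without siSOX2b replicate 3 the call was not made (log2FC -1.78, edgeR adjusted p = 0.0815). Without any other library of these groups, or with the counts of the second set halved, KRT23 no longer passed the low-count filter and had no test. KRT8 had a log2FC of -0.027 (95% interval -0.13 to 0.079), the smallest difference among the members. KRT18 was 0.26 higher in siSOX2b (adjusted p = 0.000441), and KRT80 0.19 higher (adjusted p = 0.0166). KRT19 had a log2FC of -0.33 (adjusted p = 0.000338) and KRT13 one of -0.23 (adjusted p = 0.00716). KRT4, at 11.9 to 14.2 CPM in siSOX2b and 17.1 to 18.8 CPM in siGRHL2a, did not overlap between the groups, and its log2FC of -0.47 had an adjusted p of 0.302 in the fit of all 15 libraries and 0.00246 in edgeR on its column set alone. KRT78, whose groups overlapped, had a log2FC of -0.56 (95% interval -1.47 to 0.35), and KRT7 one of -0.35 (95% interval -0.75 to 0.047). The median over the 9 members was -0.33, beside -0.018 over all genes.

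Against siNC1 the differences of the second set are confounded with the column set, and the 3 comparisons share the siNC1 libraries. For siTP63b, 1 member was lower and 3 were higher, beside 9.24% and 11.4% of all genes. For siSOX2b, 1 was lower and 3 were higher, beside 10.1% and 11.6%. For siGRHL2a, 1 was lower and 4 were higher, beside 7.99% and 11.7%. With the adjusted p alone 7, 8 and 7 members passed in siTP63b, siSOX2b and siGRHL2a, beside 54.1%, 55.4% and 54.0% of all genes in either direction. KRT80 (log2FC 1.37, 1.10 and 0.91) and KRT4 (1.16, 1.15 and 1.62) were higher in siTP63b, siSOX2b and siGRHL2a alike, though DESeq2 gave no adjusted p for KRT4 and so did not make its 3 calls. Column set cannot be told apart from the knockdown for any of these values.

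The simple pair differed between these groups. KRT8 had log2FCs against siNC1 of 0.27 in siTP63b (adjusted p = 4.88e-05), -0.73 in siSOX2b (adjusted p = 2.30e-13) and -0.71 in siGRHL2a (adjusted p = 5.83e-13). KRT18 had 0.49 (adjusted p = 1.63e-09), -0.62 (adjusted p = 1.36e-11) and -0.88 (adjusted p = 5.84e-15), of which only the last passed both thresholds. KRT13 was lower in siTP63b (log2FC -0.81, adjusted p = 3.18e-12), a call lost without replicate 2 of siTP63b (-0.73), and its values in siSOX2b and siGRHL2a were -0.45 and -0.22. KRT7 was higher in siTP63b (1.11, adjusted p = 4.01e-05) and siGRHL2a (0.77, adjusted p = 0.00277), and KRT78 in siSOX2b (2.17, adjusted p = 0.00234) and siGRHL2a (2.73, adjusted p = 0.000154). Without replicate 2 of siNC1 the values of KRT78 were 4.47 and 5.02. KRT23 was lower in siSOX2b (-1.78, adjusted p = 0.0249) on 8 counts in all, and DESeq2 did not call it (adjusted p = 0.0737). Nor did DESeq2 call KRT78 in siSOX2b (adjusted p = 0.137) or KRT7 in siGRHL2a (log2FC 0.74), and with RLE or upper-quartile size factors KRT7 in siGRHL2a was at 0.74 too.

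KRT8 and KRT18, which form filaments together, did not change by the same factor. The ratio of KRT8 to KRT18 counts was 2.18 ± 0.0839 in siNC1 and 1.76 ± 0.0485 in siKLF5b (SD, n = 3 each). It was 1.87 ± 0.0331 in siTP63b, 2.02 ± 0.124 in siSOX2b and 2.46 ± 0.126 in siGRHL2a. In each of the 4 comparisons within a set the ratios of the groups did not overlap, and the exact two-sided permutation p was 0.1, the smallest that 3 against 3 libraries allow. These are ratios of counts over spans of unequal length and not of molecules. KRT8 and KRT18 also share bases, so their counts may not be independent of each other. For the mucosal pair, KRT13 had 367 ± 9.45 counts per KRT4 count in siNC1, and between 94.3 and 1253 in the siKLF5b libraries. In siTP63b, siSOX2b and siGRHL2a that ratio was 94.1 ± 9.04, 120 ± 13.8 and 102 ± 4.38.

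**Figure D3:**
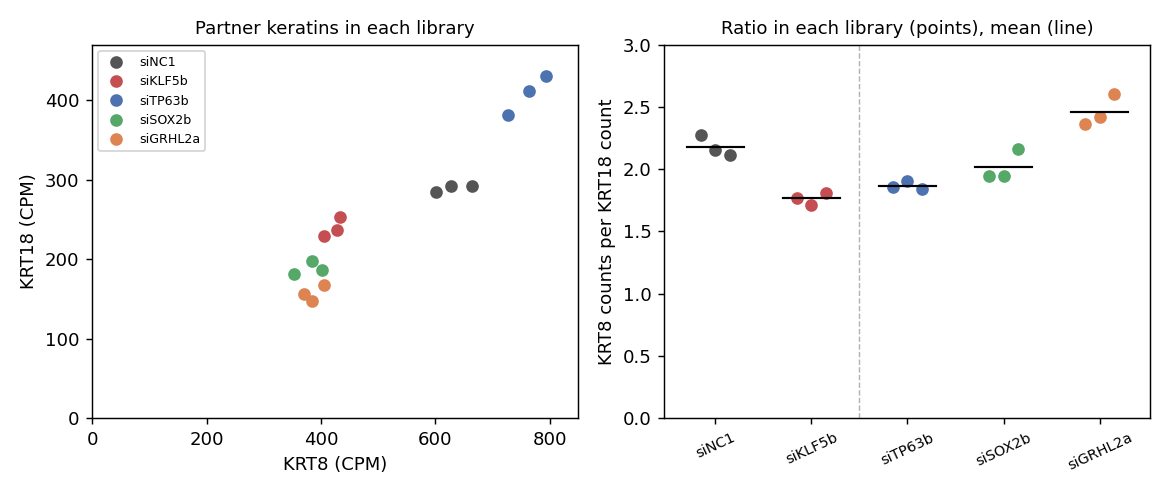
Left, KRT18 against KRT8 (CPM) in each of the 15 libraries; right, KRT8 counts per KRT18 count in each library (points) with the group mean (lines) and a dashed line between the column sets. The siTP63b libraries lie at the top for both genes, and the ratio runs from 1.76 in siKLF5b to 2.46 in siGRHL2a.

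All 55 keratins together took 1.48% ± 0.114 of the counts in siNC1 and 1.01% ± 0.0744 in siKLF5b (SD, n = 3 each). They took 1.17% ± 0.101 in siTP63b, 1.37% ± 0.0778 in siSOX2b and 1.66% ± 0.0611 in siGRHL2a. KRT5, the basal type II keratin, made up 49.8% to 56.2% of these keratin counts as group means. The 9 members made up 37.3% ± 0.374 in siNC1 and 39.0% ± 1.53 in siKLF5b, groups that overlapped (exact permutation p = 0.2). Their share was 42.9% ± 0.601 in siTP63b against 33.3% ± 0.371 in siSOX2b and 32.4% ± 1.02 in siGRHL2a. The siTP63b libraries did not overlap either group (exact permutation p = 0.1, the smallest possible), while siSOX2b and siGRHL2a overlapped (p = 0.3 in the exact permutation test). KRT8 made up 6.61% ± 0.341 of keratin counts in siTP63b, 2.81% ± 0.0652 in siSOX2b and 2.36% ± 0.0278 in siGRHL2a. KRT19 made up 20.6% ± 0.155, 16.4% ± 0.467 and 17.0% ± 1.09 in the same groups. A share also rises where other keratins fall, and KRT5 was at 5748, 7474 and 9192 CPM in siTP63b, siSOX2b and siGRHL2a. In CPM, KRT19 was lower in siTP63b (2373) than in siGRHL2a (2778), so a larger share was not always a higher level.

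**Figure D4:**
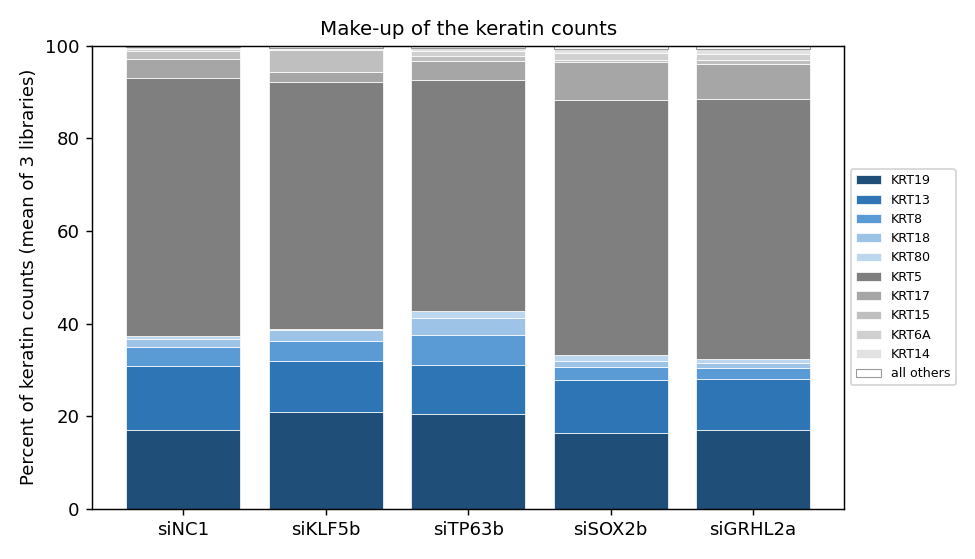
Make-up of the keratin counts in each group (mean of 3 libraries, percent), with members in blue and other keratins in grey. KRT5 fills 49.8% to 56.2% of each bar, and the blue part is widest in siTP63b at 42.9%. The bars show shares of the keratin counts and not levels.

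The 46 other keratins, of which 24 passed the low-count filter, are given beside the members. In siKLF5b against siNC1, 4 were lower and 1 was higher (1.37% and 1.89% of all genes). The median log2FC was -0.51 (-0.39 with genes at the floor set to their bound), beside -0.58 for the members. KRT17 (-1.47), KRT6A (-1.29) and KRT14 (-1.26), keratins of activated and basal cells, were lower, and KRT15, a basal keratin, was higher (0.84, adjusted p = 0.00906). In siTP63b against siSOX2b, 9 were lower and 3 higher, and against siGRHL2a 9 were lower and 2 higher, with medians of -0.68 and -0.89. The shares over all genes were 2.82% lower and 3.88% higher against siSOX2b, and 3.21% and 2.18% against siGRHL2a. There KRT17 (-1.17 and -1.37) and KRT14 (-1.17 and -1.53) were lower in siTP63b, while KRT86 (1.19 and 1.01), which shares bases with KRT7, was higher. Between siSOX2b and siGRHL2a, 4 were lower and 2 higher (2.27% and 1.05% of all genes), among them KRT6B (-1.78) and KRT6C (-1.92). These 2 near-identical genes can exchange reads, and both varied widely among the siGRHL2a libraries, KRT6C from 11.9 to 52.2 CPM.

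Of 26 listed genes for proteins that bind or anchor keratin filaments 23 were tested. In siKLF5b against siNC1, 3 were lower and 0 higher, where 1.37% of all genes were lower, and 14 of the 23 had an unadjusted p below 0.05, beside 33.3% of all genes. The 3 called were SFN, a 14-3-3 protein that binds keratins (log2FC -1.14, 314 ± 35.6 to 143 ± 12.4 CPM), the plakin PPL (-0.80) and the plakin EPPK1 (-0.80). The median of the list was -0.14. In siTP63b against siSOX2b, edgeR called 0 of them (2.82% of all genes were lower and 3.88% higher), with 14 at an unadjusted p below 0.05, beside 40.7% of all genes. In siTP63b against siGRHL2a, SFN (-1.18) and EPPK1 (-0.90) were lower, where 3.21% of all genes were, and 12 had an unadjusted p below 0.05, beside 36.9% of all genes. Between siSOX2b and siGRHL2a edgeR called 0 (2.27% lower and 1.05% higher of all genes), with 13 at an unadjusted p below 0.05, beside 35.3% of all genes. Across the column sets, against siNC1, edgeR called 6, 9 and 9 of the 23 in siTP63b, siSOX2b and siGRHL2a, of which 4, 6 and 7 were higher. Of all genes tested, 11.4%, 11.6% and 11.7% were higher and 9.24%, 10.1% and 7.99% lower in these groups. Among the 23, the cytolinker PLEC (log2FC 1.64, 1.62 and 1.72) and the junction protein JUP (1.34, 1.18 and 1.32) were higher in all 3 groups, where column set cannot be told apart from the knockdown. Of 12 other intermediate filament genes tested, only NEFL in siTP63b against siGRHL2a (-0.75) was called by edgeR in the 4 comparisons within a set, where the same shares of all genes were called. At an unadjusted p below 0.05 there were 8 in siKLF5b against siNC1, 4 in siTP63b against siSOX2b, 3 in siTP63b against siGRHL2a and 7 in siSOX2b against siGRHL2a, beside the same 33.3%, 40.7%, 36.9% and 35.3% of all genes.

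Of 42 listed genes of simple and glandular epithelium 31 were tested, and in siTP63b 8 were higher and 0 lower against each of siSOX2b and siGRHL2a, and 23 were not called in each comparison. Among all genes 3.88% and 2.18% were higher, and the medians of the list were 0.49 and 0.27. FOXA1, a pioneer factor of glandular epithelia, was at 27.5 ± 1.45 CPM in siTP63b against 8.15 ± 0.693 in siSOX2b and 10.9 ± 0.863 in siGRHL2a (log2FC 1.76 and 1.34). The protease inhibitor SLPI was higher by 1.12 against siSOX2b, and the epithelial factor EHF by 1.00 against siGRHL2a. In siKLF5b against siNC1, 3 were lower and 0 higher (1.37% and 1.89% of all genes), namely CLDN4 (-1.04), SLPI (-0.97) and CEACAM5 (-0.94), and the median was -0.25. MUC16 alone was called between siSOX2b and siGRHL2a (-1.57, adjusted p = 0.0399), on at most 6 and 20 counts a library, where 2.27% of all genes were lower and 1.05% higher.

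Genes of mucosal differentiation gave 37 tested of 52 listed. In siKLF5b against siNC1, 7 were lower and 0 higher with a median of -0.28, where 1.37% of all genes were lower and 1.89% higher. The 7 included SCEL, a cell envelope precursor (-1.43), the small proline-rich protein SPRR3 (-1.67) and the calgranulin S100A9 (-0.86). Against siSOX2b, siTP63b had 0 lower and 4 higher, and against siGRHL2a 5 lower and 5 higher, with medians of -0.084 and -0.0038. Of all genes, 2.82% were lower and 3.88% higher in the first comparison and 3.21% and 2.18% in the second. EMP1, a membrane protein of suprabasal cells, was at 503 ± 11 CPM in siTP63b against 211 ± 5.95 and 212 ± 2.91 CPM (log2FC 1.25 and 1.25). SCEL (0.91 and 0.96) and MUC4, a membrane mucin (1.34 and 0.87), were higher in both comparisons as well. The 5 genes lower than in siGRHL2a were SPRR3 (-0.83), SPRR2D (-1.19), the protease TMPRSS11A (-1.13), the protease inhibitor SERPINB3 (-2.28) and the transglutaminase TGM3 (-1.18), of which all but SPRR3 were below 2 CPM in every library. Between siSOX2b and siGRHL2a, SERPINB3 was lower (-1.81) and SPRR1A higher (1.13), where 2.27% of all genes were lower and 1.05% higher.

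Genes whose levels followed those of a member were ranked by Pearson r of log2 CPM over the 15 libraries, after the mean of each column set was taken away, among 11815 genes of at least 10 CPM. The points come in 5 groups of 3 libraries, so r mostly reflects the group means and is given as a description. KRT8 was followed most closely by CDC25B, a cell cycle phosphatase (r = 0.988), PTPRU (0.981) and SCNN1A, a subunit of the epithelial sodium channel (0.980). KRT18 was followed by PEG10 (0.982), ENSG00000232295 (0.974) and EMP1 (0.973). For KRT13 the nearest genes were KRT5 (0.972), its overlapping neighbour ENSG00000229732 (0.971) and KRT6A (0.969). KRT80 was nearest to LINC00592 (1.00), then to CCND1, which encodes cyclin D1 (0.982), and LTO1 (0.980). KRT19 had C1orf115 (0.934), FXYD3 (0.929) and ENSG00000285526 (0.928). The members with the fewest counts reached lower values. Nearest were FAM104A (0.852) for KRT7, MDGA1 (0.919) for KRT23, ENSG00000223725 (0.855) for KRT78 and ZFP41 (0.746) for KRT4.

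Markers of other cell types were read beside these results. All 14 squamous markers were above 3 counts. Their sum was 10926 ± 800 CPM in siNC1, 7520 ± 565 in siKLF5b and 7925 ± 591 in siTP63b. It was 10372 ± 470 in siSOX2b and 12571 ± 172 in siGRHL2a, most of it KRT5. KRT5 was at 8633 CPM in siNC1, 5363 in siKLF5b and 5748 in siTP63b, while the other squamous markers moved both ways. In siKLF5b PERP was at 375 CPM beside 217 in siNC1, and ITGB4 at 93.0 beside 139. In siTP63b ITGB4 was at 286 CPM beside 139 in siNC1, and DSC3 at 147 beside 284. Of 13 lung glandular markers 6 were at or under 3 counts in every siNC1 library, and the sum went from 35.3 ± 1.15 CPM in siNC1 to 21.3 ± 1.26 in siKLF5b and stood at 22.4 ± 1.23, 22.6 ± 0.906 and 26.8 ± 2.31 in siTP63b, siSOX2b and siGRHL2a. Its most abundant gene was LAMP3, at 29.9 CPM in siNC1, 16.1 in siKLF5b and 15.4, 12.7 and 14.7 in siTP63b, siSOX2b and siGRHL2a. The next, NKX2-1, was at 2.53 CPM in siNC1 and 2.43 in siKLF5b. It was higher in siTP63b, siSOX2b and siGRHL2a, at 5.55, 8.49 and 10.01 CPM, so the lower sum there did not hold for every marker. Column set cannot be told apart from the knockdown for these 3 groups. The surfactant gene SFTPC had at most 2 counts in any library. Fibroblast markers summed to 54.5 ± 5.77, 33.9 ± 8.31, 52.1 ± 6.14, 65.9 ± 7.87 and 65.8 ± 2.82 CPM in the 5 groups in the same order, nearly all THY1. Blood and immune markers summed to 58.7 ± 2.81, 58.9 ± 5.46, 21.6 ± 1.76, 29.4 ± 1.72 and 29.7 ± 2.0 CPM, nearly all CSF1R, with 9 of 11 at or under 3 counts. Endothelial markers summed to 16.7 ± 0.592 CPM in siNC1 and 5.40 to 14.3 CPM elsewhere, mostly VWF in every group, and neuroendocrine markers to 1.35 to 4.28 CPM. The part of these marker levels in the keratin differences was not tested.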

How the data were processed

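Poly(A)+ RNA-seq of HCC95 cells was deposited as 1 table of raw counts per gene. The labels give the molecule as genomic DNA, whereas their extraction protocol describes RNA, which was followed here. Per the study's methods the authors used HISAT2 2.2.1 with hg38 for the paired-end reads, and featureCounts 2.0.1 with Gencode v40 for uniquely aligned ones (versions also in the submitters' processing notes), and the deposited counts are not normalized. In the table the counted length equals the gene span for all 61544 genes, so intron reads count, and none of the 37 mitochondrial genes has a count. All count columns matched a sample.

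Here the counts of all 15 libraries were fitted together with edgeR 4.0.16 (limma 3.58.1, R 4.3.3), with filterByExpr, TMM factors, 1 mean per group and the quasi-likelihood test. Benjamini-Hochberg adjustment ran over all 25108 genes tested, and genes with adjusted p under 0.05 were called where their log2FC lay beyond 0.75 in either direction. CPM used TMM-scaled library sizes, and log2 CPM for pattern comparison a prior count of 2. Ratios, shares and targeted genes were compared by exact two-sided permutation tests. Each library counted as a replicate, as labelled. Chi-square per gene between libraries of a group was 2.04 to 4.34 in the first column set and 4.95 to 8.10 in the second. The part of the even-count excess in this was not tested. The fit was tested on simulated data.

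Named genes were the members, the targeted genes, overlapping genes and summed pseudogenes. In each list and within-set comparison they were also the called genes of lowest adjusted p (at most 3). Added to these were the 3 genes nearest in pattern to each member (1 for KRT7, KRT23, KRT78 and KRT4). A gene that this rule names is not reported here. KRT15, KRT16, KRT71, KRT81, PLEC, JUP, SPRR2D, TMPRSS11A, TGM3, SPRR3 and SERPINB3 in siTP63b against siGRHL2a, and the values of KRT6C were named after they were seen. The members and gene lists were chosen with earlier results of these data known, and lists are described by counts and medians without a test. Alternatives were other filters, size factors, thresholds and sample sets, DESeq2 1.42.0, halved counts, a replicate block and leaving out each library. For single members the counts of LINC00592 (KRT80) or of pseudogenes (KRT8, KRT18 and KRT19) were also added.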

Additional observations from a re-analysis of the deposited data

How the results depend on the processing

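Of the counts of members called under all alternatives, 93 stayed within 1.5 times the value reported and 23 did not. Without the threshold on log2FC the counts were 5 for siKLF5b against siNC1 (2 as reported), 6 for siTP63b against siSOX2b (3), 6 for siTP63b against siGRHL2a (3), 5 for siSOX2b against siGRHL2a (1), 7 for siTP63b against siNC1 (4) and 8 for siSOX2b against siNC1 (4), where 23.2%, 31.8%, 27.1%, 24.5%, 54.1% and 55.4% of all genes tested passed. With an absolute log2FC above 1 they were 1 for siKLF5b against siNC1 and 2 for siGRHL2a against siNC1 (5), beside 1.47% and 12.9% of all genes. DESeq2 gave 0 for siSOX2b against siGRHL2a, 1 for siSOX2b against siNC1 and 3 for siGRHL2a against siNC1, beside 2.83%, 17.1% and 15.8%. At least 10 counts in every library left 2 for siSOX2b against siNC1 and 0 for siSOX2b against siGRHL2a, beside 20.1% and 2.62%. The latter was also 0 with no low-count filter, with the 6 libraries or the column set compared alone, with halved counts (1.92%, 2.90%, 2.70% and 3.04% of all genes), and from 0 to 0 when each library was left out (2.74% to 3.48%). Leaving out 1 library gave 2 to 3 for siKLF5b against siNC1 (2.70% to 3.11% of all genes), 2 to 4 for siTP63b against siSOX2b (6.12% to 6.80%), 3 to 3 for siTP63b against siGRHL2a (4.83% to 5.53%), and 3 to 5, 3 to 4 and 4 to 5 for siTP63b, siSOX2b and siGRHL2a against siNC1 (18.8% to 20.6%, 19.4% to 21.3% and 17.6% to 19.7%). The cause of these changes was not tested.

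Of the members' log2FCs under alternatives, 837 kept direction and side of the threshold, 8 newly passed, 19 no longer passed and 19 changed sign, none of these 19 a called value. KRT4 in siKLF5b against siNC1 became 0.29 and 0.16 without siKLF5b replicate 1 and 3 (-2.59 to 0.29 over all left-out libraries). KRT78 there became 0.64 without siNC1 replicate 2 (-2.58 to 0.64), and with no low-count filter it kept its direction and passed (adjusted p = 0.000214). KRT4 in siTP63b against siSOX2b became -0.00025 with the 6 libraries alone and -0.019, -0.10, -0.053 and -0.0085 without siTP63b replicate 1 or 3 or siSOX2b replicate 1 or 2 (from -0.10 to 0.13 over all left-out libraries). KRT8 in siSOX2b against siGRHL2a became 0.033 and 0.0080 without replicate 2 of either group (-0.057 to 0.033). KRT78 in siTP63b against siNC1 became -0.31, -0.33 and -1.64 without siNC1 replicate 1 or 3 or siTP63b replicate 2, and 2.52 without siNC1 replicate 2. KRT19 in siGRHL2a against siNC1 became -0.0080 without siGRHL2a replicate 2. KRT23 there became -0.0061 with RLE and -0.0043 with upper-quartile factors, -0.0018 with DESeq2, and -0.025 and -0.089 without siNC1 replicate 1 or 2 (-0.089 to 0.14). KRT7 in siGRHL2a against siNC1 lost its call under RLE (0.74), upper-quartile factors (0.74), DESeq2 (0.74) and without siNC1 replicate 1 (0.65), siNC1 replicate 3 (0.74) or siGRHL2a replicate 2 (0.71). DESeq2 gave no adjusted p for KRT4.

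With the replicate number as a block, 2 members were called in siKLF5b against siNC1 and 3 in siTP63b against siSOX2b (3.21% and 6.64% of all genes), as without it, and the block changed no call of a member. Deviations of same-numbered libraries correlated from -0.0451 to 0.0494 over the 7 comparisons, so the libraries share a number and no pairing was used. KRT7 and KRT23 held few counts, 937 and 83 in all 15 libraries, whereas KRT78 (1240 counts) varied widely between libraries of a group. The part of depth in their results was not tested.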

Other observations

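KRT78 was highest in replicate 2 of all 5 groups. It had 52, 13, 83, 217 and 289 counts in replicate 2 of siNC1, siKLF5b, siTP63b, siSOX2b and siGRHL2a. In the other libraries of siNC1, siKLF5b and siTP63b it did not exceed 13 counts. None of the other 8 members had its highest CPM in the same replicate number in every group, and of the 25108 genes tested 110 (0.438%) were highest in replicate 2 of every group. KRT4, which stood out in replicate 2 of siKLF5b, did so in no other group, with 101 counts in replicate 2 of siNC1 beside 143 and 130. This pattern was chosen after its values were seen.

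Some hair keratins rested on 1 or 2 libraries of siSOX2b. KRT36 averaged 2.28 CPM there but ranged from 0.455 to 5.87 CPM, beside 0.238 ± 0.103 CPM in siGRHL2a, and KRT71 ranged from 0.265 to 5.26 CPM. KRT81, another hair keratin, was at 1.38 ± 0.164 CPM in siTP63b (SD, n = 3) and at most 0.354 CPM in any library of the other groups. KRT16, an activation keratin, was at 2.48 ± 0.624 CPM in siNC1 and 0.744 ± 0.154 in siKLF5b (log2FC -1.72, edgeR adjusted p = 6.69e-06).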
